A study of Homo sapiens with 197 samples.

Results

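The 9 kinases examined here are AKT, SGK, PDPK1 and S6 kinases, tested in a Nanostring screen in IMR90 cells, a non-transformed human lung fibroblast line. The 9 wells were those whose kinase name begins with AKT, SGK or RPS6K, plus PDPK1, and they made up 4.92% of the kinase wells used, with all remaining kinase wells as the comparison. They were AKT1, SGK and PDPK1, the RPS6KA wells RPS6KA2, RPS6KA5 and RPS6KA6, the RPS6KB wells RPS6KB1 and RPS6KB2, and RPS6KL1. The well labelled PDK1 is not one of them, and the lane spelled RPSK6A3 stayed among the other kinases, since its name does not begin with RPS6K. The lane of HK1 and the second lanes of PIK3CG and PTK2, 3 in all, entered no comparison.

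In each well, IMR90 cells grown in 10% serum had been infected with a retrovirus that encodes 1 kinase carrying a myristoylation signal, and RNA was collected 4 days later. Myristoylation holds a kinase at the membrane, and none of the constructs was shown in these data to be active. The controls were 2 IMR90 lanes, IMR90#1 and IMR90#2, labelled as empty vector, at the same time point. Each kinase was measured in 1 lane, so wells of different kinases are not replicates of one condition, and every p below measures the spread between such wells.

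PDPK1 acts above several of these kinases: it phosphorylates the activation loop of AKT, SGK and the RPS6KB kinases. AKT1 and SGK are activated downstream of PI3K and restrain FOXO transcription factors, whereas the RPS6KB kinases act below mTORC1 on ribosomal protein S6. Among the RPS6KA kinases, RPS6KA2 and RPS6KA6 belong to the RSK kinases that act below ERK, and RPS6KA5 is MSK1, a nuclear kinase of CREB and histone H3. RPS6KL1 is a relative of the S6 kinases whose function is poorly known.

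Each lane held barcode counts for 75 probes, of which 58 rows were compared. These were 42 for tissue-restricted genes, mostly of the testis, 15 other endogenous rows and B2M. Rows go by their given names, and what sequence each probe reads was not checked. Among the 15, the row named MyrFlag did not separate infected wells from controls and the row named ZBTB33 did, as given below. Counts were scaled by the 6 positive controls and then by PGK1, TBP and TUBB2A, and these normalized counts are given throughout. After scaling, PGK1 lay between 9394 and 11202 in the 9 wells, TBP between 382.3 and 467.4, and TUBB2A between 4017 and 4371. Total counts ran from 148027 to 298024 in the 9 wells, from 29629 to 340763 in the other kinase wells, and were 142255 and 152599 in the controls. The panel held 0 of 7 fibroblast markers looked up, so the cell type could not be checked against its markers.

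The AKT1 lane carries sample number 4, which the left-out second lane labelled PTK2 also carries. Over 14 rows with a median raw count over 100, the root mean square log2 difference between these lanes was 0.145, whereas the first and second lanes labelled PTK2 differed by 0.632 and AKT1 differed from its nearest well in use by 0.297. The PPM1D differences that rest on AKT1 are therefore also given without it.

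The row named PPM1D, by name the p53-induced phosphatase WIP1, was where a member stood farthest from the screen with the main settings. It was at 300.6 normalized counts in AKT1, 190.1 in SGK and 102.01 in PDPK1. Its level was 170.3 in RPS6KA2, 200.9 in RPS6KA5 and 199.7 in RPS6KA6, then 161.8 in RPS6KB1, 123.8 in RPS6KB2 and 121.8 in RPS6KL1. AKT1 was the highest of all kinase wells, ahead of FRK with 245.8 and TSSK1B with 229.7, while PDPK1, the kinase that activates AKT, had the lowest level of the 9. The other kinase wells had a median of 147.8, and the IMR90 controls were at 172.1 and 214.7.

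The AKT1 value corresponds to 327 raw counts, with an exact 95% Poisson interval of 293 to 364 that covers counting error only. Relative to the geometric mean of the other kinase wells it was 2.06-fold, and the Z-score, the distance of log2(normalized count + 1) from the mean of the kinase and control wells in SD, was 2.80. Among the 7 other kinase wells of the same block of 12 sample numbers, the PPM1D level had a median of 188.9, with extremes of 75.1 and 202.6. The left-out second lane labelled PTK2, with the same sample number, had 289.1, against 143.7 in the first lane labelled PTK2.

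The promoter of PPM1D is shown because the row of that name holds the single pair past the Z-score threshold with the main settings. A further reason is that CREB, a substrate of RPS6KA5 and AKT1, binds the cyclic AMP response element. The 250 bases before its start site lie on chromosome 17 of GRCh38.p14, plus strand, and were taken from RefSeq. The capitals mark the 1 match to TGACGTCA, which reads the same on both strands and ends 53 bases before the start site.
PPM1D promoter, chr17:60599943-60600192: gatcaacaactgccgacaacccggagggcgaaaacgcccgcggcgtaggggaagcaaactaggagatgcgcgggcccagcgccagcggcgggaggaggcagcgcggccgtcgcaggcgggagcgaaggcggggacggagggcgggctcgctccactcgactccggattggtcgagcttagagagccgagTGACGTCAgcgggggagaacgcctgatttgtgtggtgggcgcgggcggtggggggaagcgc
The element was found in 578 of 35116 RefSeq windows of this length (1.65%). Within the panel it was found for 3 of 48 genes with 83 windows, namely PPM1D, TUBB2A and ZBTB38. The match is a description of the letters, and no binding was measured. Whether the row named PPM1D reads this gene was not checked.

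**Figure D1:**
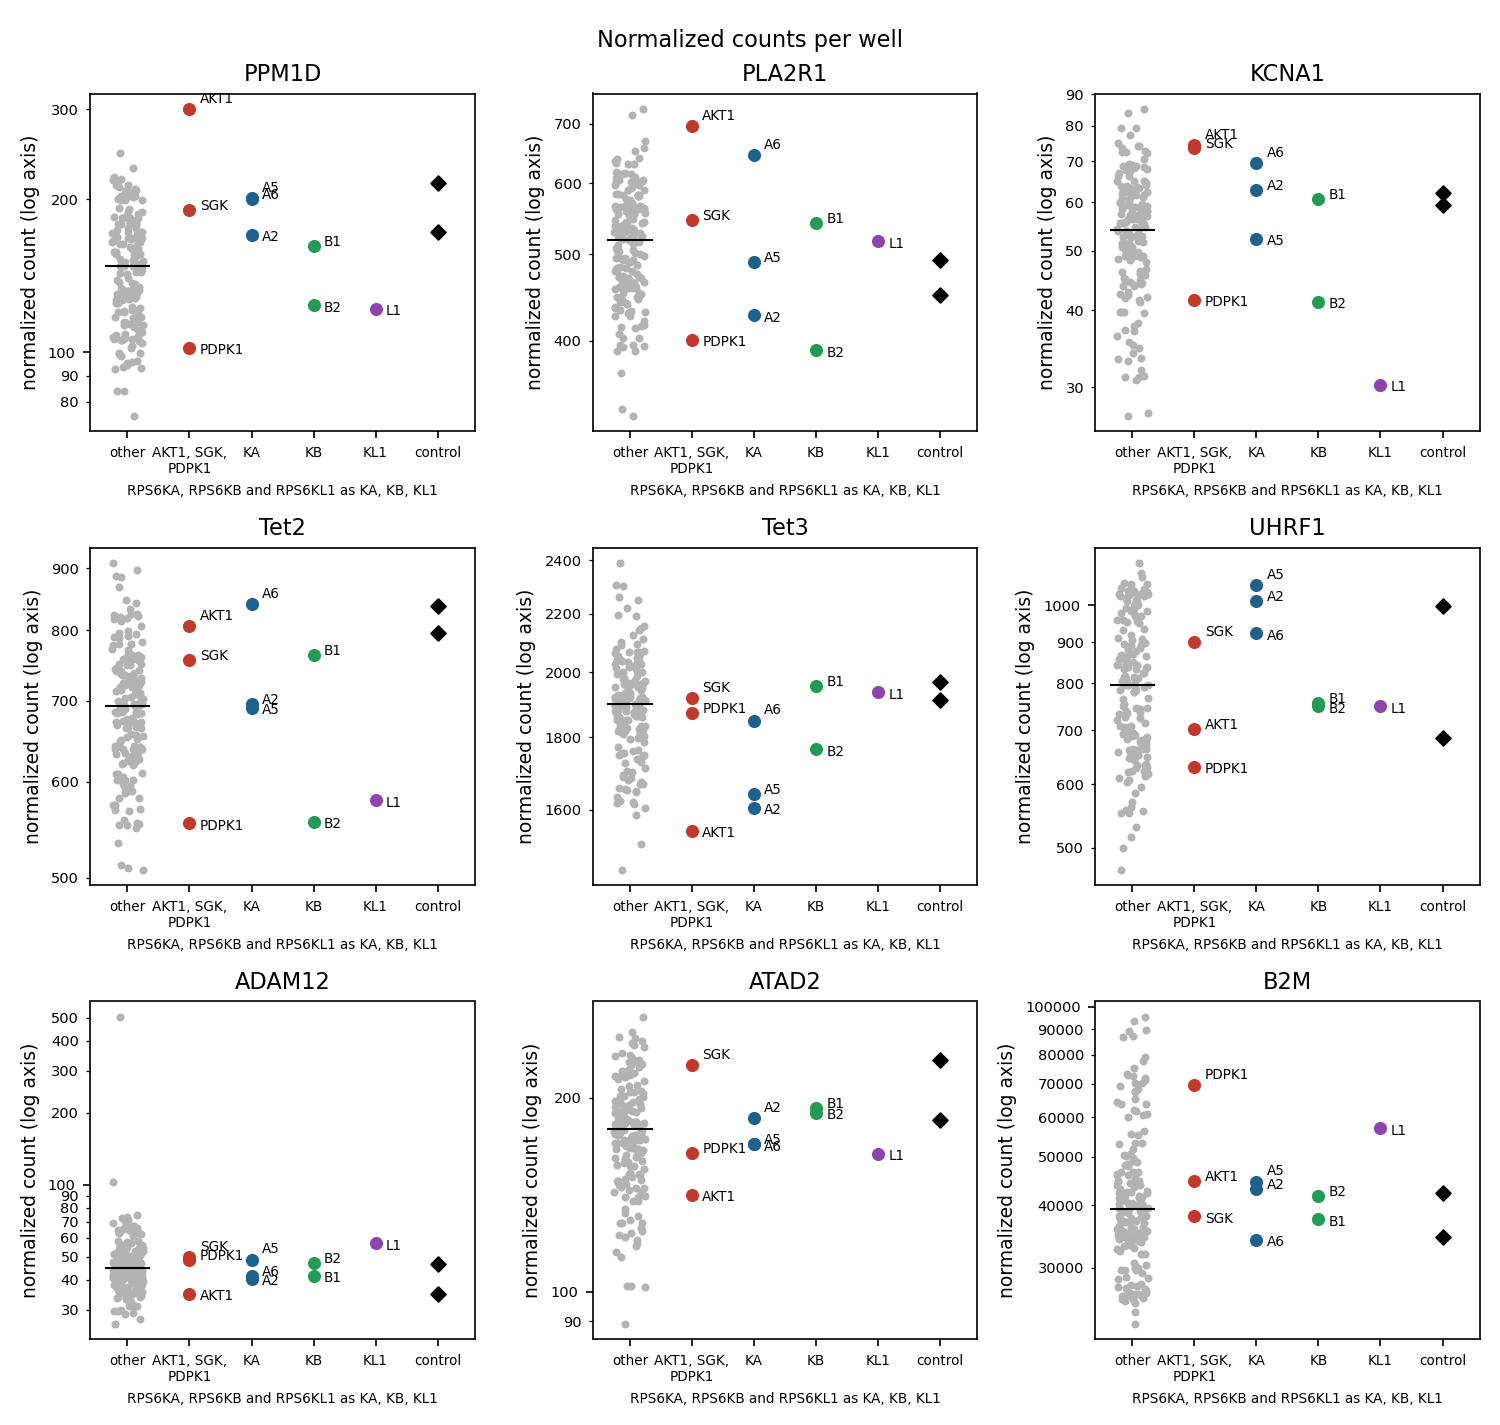
Normalized counts of 9 rows (log axes) in each well: grey points are the other kinase wells with a black line at their median, colored points the 9 members, black diamonds the 2 IMR90 controls. AKT1 lies above every other well for PPM1D (300.6), the 3 RPS6KA wells lie above both RPS6KB wells for UHRF1, and all 9 members lie within the range of the other wells for the rest of the rows shown.

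Across all pairs of a well and a row, the members crossed the threshold of 2.5 once. PPM1D in AKT1 was the single pair above it among 522, and 0 pairs lay below -2.5. The Z-score of PPM1D in AKT1 was 2.38 with all 4 housekeeping genes and 2.45 with the median and median absolute deviation, both under the threshold. Between 0 and 6 pairs of the members passed over the 8 alternatives run. Tet3 in AKT1 reached -3.21 with the median and median absolute deviation. PLA2R1 in AKT1 reached 3.10 with blocks of sample numbers centred, beside 2.92 for PPM1D in AKT1. Over all kinase wells, 40 of 10614 pairs (0.377%) lay above and 89 (0.839%) below. The tissue-restricted rows thus gave 0 pairs past the threshold in these 9 wells with the main settings, whereas PIWIL1 in RPS6KL1 passed it with positive controls only (2.52), TKTL2 in RPS6KA6 with a pseudocount of 10 (2.75), DDX4 in RPS6KA2 with the median and median absolute deviation (-2.51) and STK31 in PDPK1 with blocks of sample numbers centred (2.53). Some of the 12 further pairs with a Z-score past 2 in either direction, chosen after their values were seen, are given next, some from abundant rows and some from rows with few counts.

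The row named KCNA1, by name a voltage-gated potassium channel, had its lowest member value in RPS6KL1. This was 30.3 normalized counts from 42 raw counts, with a Z-score of -2.40. The highest KCNA1 values among the members were 74.4 in AKT1 and 73.6 in SGK, and the controls had 59.3 and 62.1. Tet3, a 5-methylcytosine dioxygenase, was at 1547 in AKT1 (Z-score of -2.38), at 1605 in RPS6KA2 and 1642 in RPS6KA5, and between 1765 and 1958 in the other members, with 1911 and 1971 in the controls. DDX4, the germ cell RNA helicase VASA, had 4 raw counts in RPS6KA2, the lowest normalized level of all kinase wells (Z-score of -2.38). That lane had a negative-control level, the mean plus 2 SD of its 8 negative-control probes, of 19.4 raw counts. TKTL2 in RPS6KA6 (Z-score of 2.23, 15 raw counts) was below its lane's level of 23.6 as well, and the germ cell Argonaute protein PIWIL1 in RPS6KL1 (Z-score of 2.08, 29 raw counts) was just above its lane's level of 24.7.

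**Figure D2:**
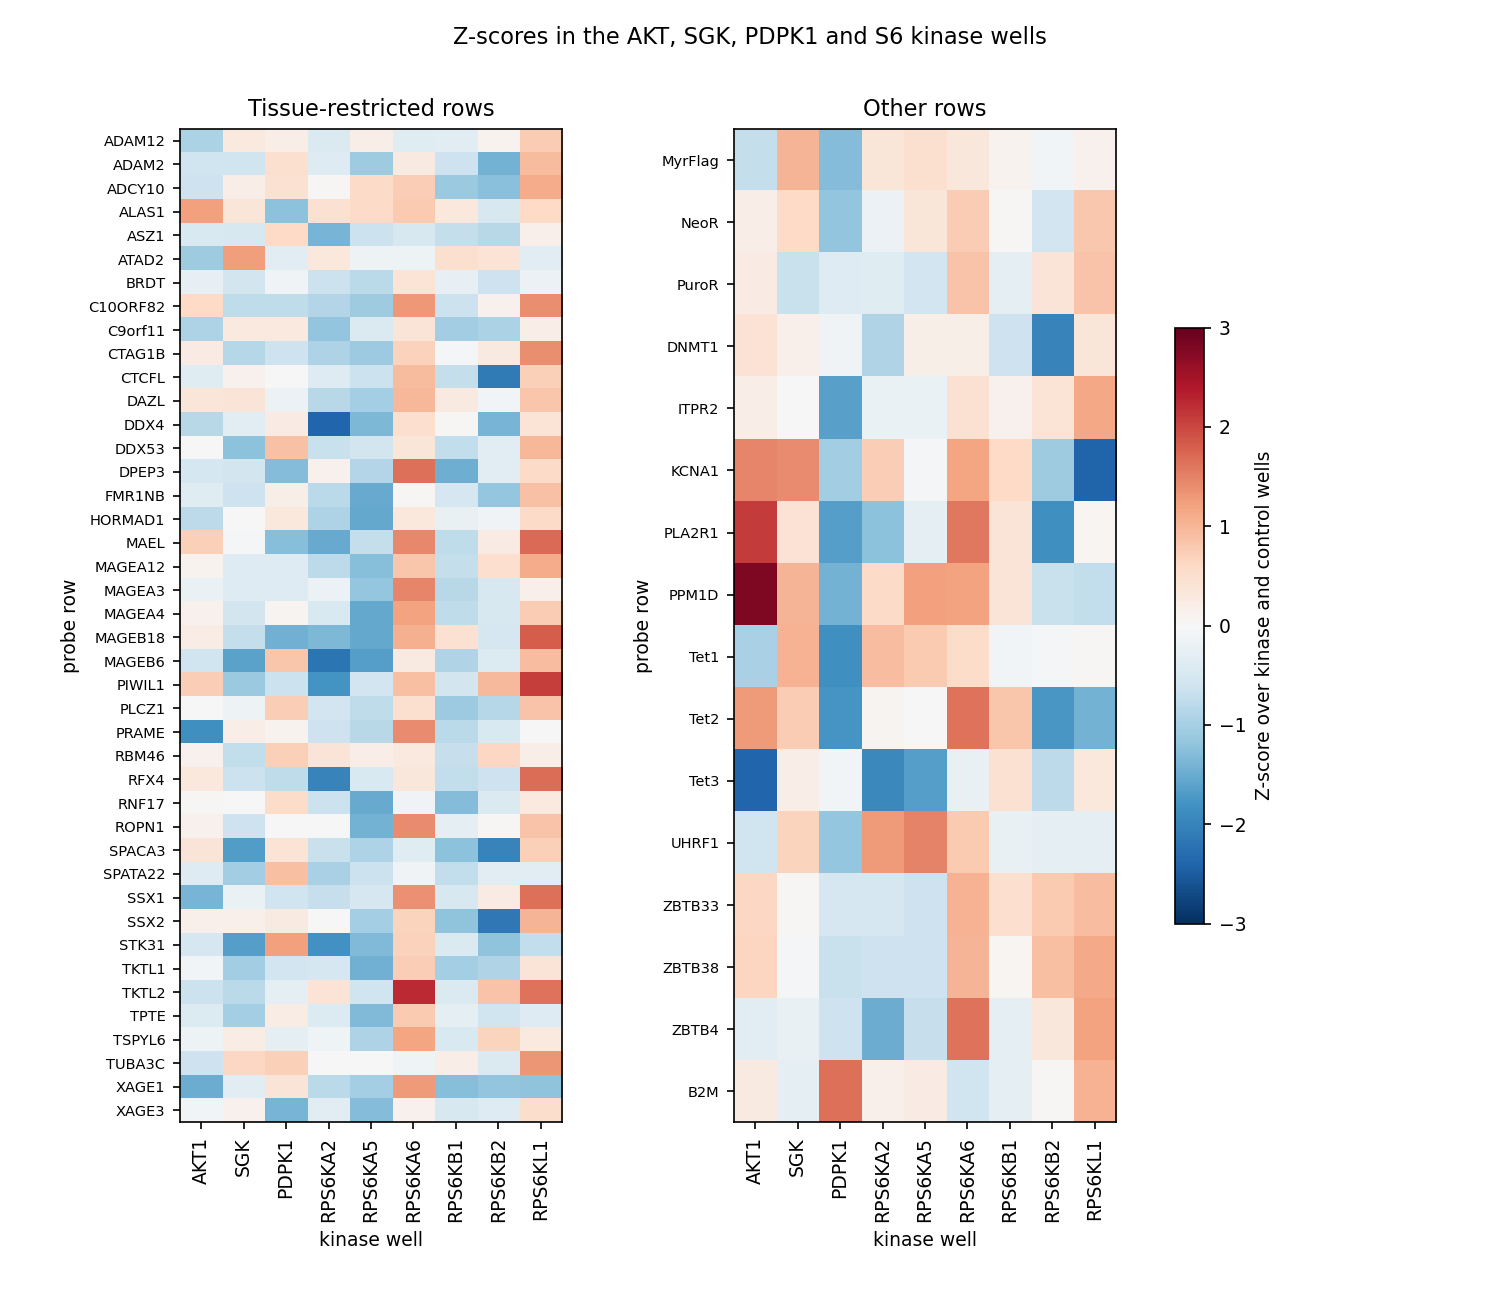
Z-scores of the 42 tissue-restricted rows (left) and of the 16 other rows (right) in the 9 wells, on a color scale from -3 to 3. The deepest red is PPM1D in AKT1 (2.80), and the tissue-restricted rows are mostly red in RPS6KA6 and RPS6KL1 and mostly blue in RPS6KA5.

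AKT1 and PDPK1 lay on opposite sides of the mean of the other kinase wells in several abundant rows. The phospholipase A2 receptor PLA2R1 was at 695.8 in AKT1, the third highest of all kinase wells, and at 400.5 in PDPK1. Tet2 was at 806.1 in AKT1 and 554.6 in PDPK1, and ALAS1, the first enzyme of heme synthesis, at 584.6 and 399.7. B2M, the light chain of MHC class I, was at 44778 in AKT1 and 69528 in PDPK1, the highest of the 9, both above that mean. Over the 12 abundant rows other than ZBTB33 and ZBTB38, AKT1 and PDPK1 differed by a root mean square of 0.617 in log2, the largest distance of the 36 pairs of members. The next, between PDPK1 and RPS6KA6, was 0.606. The median was 0.319 over these 36 pairs and 0.338 over 15051 pairs of other kinase wells.

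SGK and PDPK1 were on opposite sides of the mean of the other kinase wells in 12 of these 12 rows, and AKT1 and PDPK1 in 6. SGK was closest to RPS6KB1 among the members, at 0.166, and to RPS6KA6, at 0.168, and the smallest distance of any pair of members was that of RPS6KA2 and RPS6KA5, at 0.110. These last 2 wells carry neighboring sample numbers, 68 and 67. Of the 45 places among the 5 nearest kinase wells of each member, 2 were taken by another member. The members made up 4.92% of the kinase wells used. A well of the member's own block of 12 sample numbers took 17 places, and that block held on average 5.25% of the other kinase wells. With ZBTB33 and ZBTB38 included, 2 places went to another member and 9 to the own block.

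As a group, the 9 wells did not pass the test in any row. In the edgeR quasi-likelihood test against the other kinase wells with Benjamini-Hochberg adjustment, 0 of 58 rows were called at an adjusted p of 0.05 (0% called), with a lowest adjusted p of 0.585. At an unadjusted p under 0.05 there was 1 row, XAGE1. DESeq2, limma and the exact rank-sum test also called 0 rows.

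The 8 rows with the smallest p were XAGE1, Tet3, PPM1D, STK31, TKTL1, SPACA3, ASZ1 and DDX4. For PPM1D the log2 fold change was 0.21 ± 0.12 (SE), with a 95% interval from -0.02 to 0.45, and 6 of 9 members were above the median of the other kinase wells. Without AKT1 it was 0.08. XAGE1, a cancer/testis antigen, had a log2 fold change of -0.47 ± 0.24 (SE, unadjusted p = 0.0476 in edgeR), with 4 to 15 raw counts in each of the 9 wells. Only PDPK1 and RPS6KA6 lay above the other wells' median for this gene.

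Tet3 differed by -0.09 on the log2 scale (SE 0.05), and by 0.026 with DESeq2's own size factors. For the serine/threonine kinase STK31, the transketolase-like TKTL1, the acrosomal protein SPACA3, the piRNA pathway protein ASZ1 and DDX4, the log2 fold changes were between -0.34 and -0.29. Each of these genes lay below the lane's negative-control level in every member. All 8 rows shared an adjusted p of 0.585 in edgeR.

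For the 12 abundant rows other than ZBTB33 and ZBTB38, the 95% intervals of the family difference together spanned -0.25 to 0.45 on the log2 scale. Larger shared shifts lie outside the intervals of every one of these 12 rows. With ZBTB33 and ZBTB38 included, the span was -0.74 to 1.07. For the tissue-restricted rows the span was -0.94 to 0.67. The spread among the 9 wells was above that of the other kinase wells in 14 of 58 rows.

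**Figure D3:**
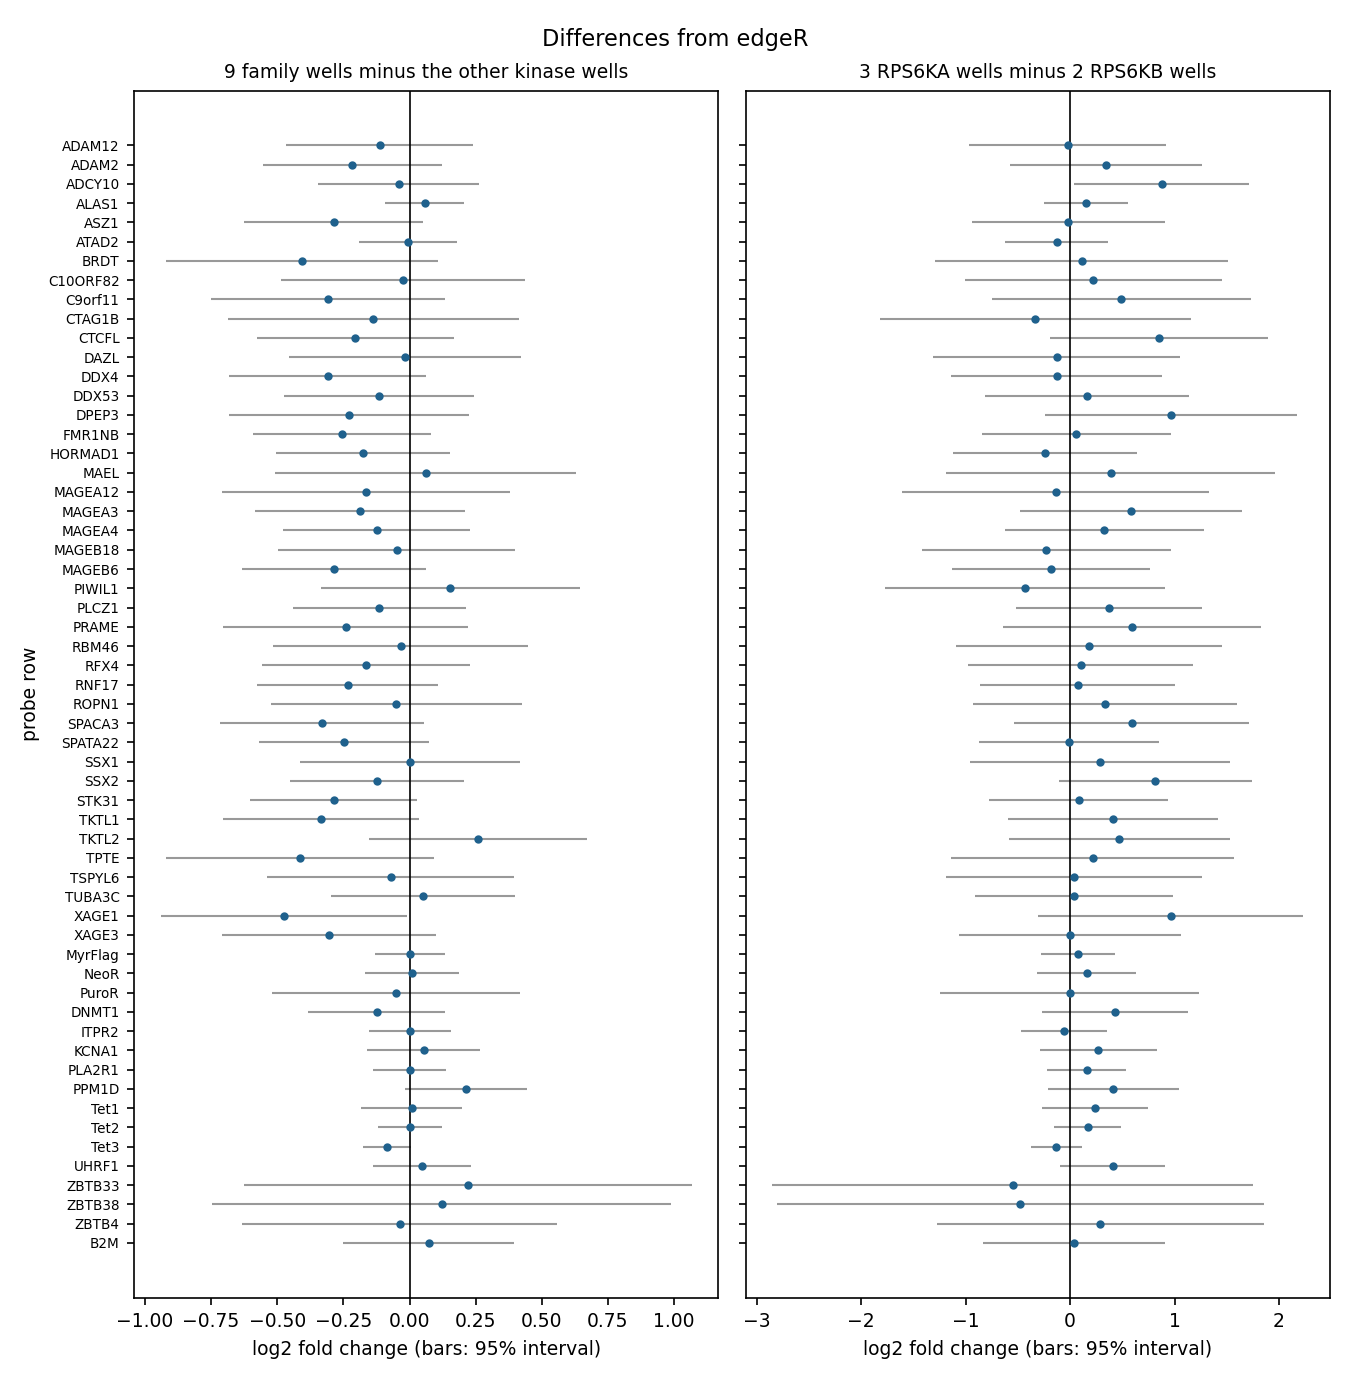
Log2 fold changes from edgeR for 58 rows with bars of 95% intervals: the 9 wells against the other kinase wells (left) and the 3 RPS6KA wells against the 2 RPS6KB wells (right). In the left panel XAGE1 is the single row whose bar excludes 0, in the right panel ADCY10, and neither passed the adjusted threshold.

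The tissue-restricted genes sat mostly at or below the negative-control level. Between 3 and 14 of the 42 rows exceeded that level in a member (median 4), against a median of 6 in the other kinase wells and 3 in both controls. ADAM12, ALAS1 and ATAD2 exceeded it in all 9, and the sperm phospholipase PLCZ1 in the 8 members other than RPS6KA5.

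ADAM12, a metalloprotease, ranged from 34.9 in AKT1 to 56.9 in RPS6KL1, around the other wells' median of 44.9, and was at 35.01 and 46.8 in the controls. ATAD2, a bromodomain ATPase, ranged from 141.5 in AKT1 to 225.2 in SGK, with 184.8 and 228.9 in the controls. ALAS1 ranged from 399.7 in PDPK1 to 584.6 in AKT1. For each of these genes the members lay within the range of the other kinase wells, and the family differences were -0.11, -0.01 and 0.06 on the log2 scale.

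By gene group, 0 rows were called in any list, and the signs were mostly negative. Of the 42 tissue-restricted rows, 36 had a log2 fold change below 0, with a median of -0.17, beside -0.10 over all 58 rows. All 5 MAGE rows were below 0 (median -0.17), as were 5 of 6 other cancer/testis antigens (median -0.19), 5 of 7 germ cell RNA and piRNA genes (median -0.12) and 7 of 7 germline chromatin and meiosis genes (median -0.18). Sperm structure and fertilization genes were below 0 in 7 of 8 rows (median -0.17) and enzymes in 4 of 6 (median -0.13). Of the 8 DNA methylation and methyl-binding rows, 3 were below 0 (median 0.00).

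The negative signs did not come evenly from the members. The median Z-score over the 42 rows was 0.74 in RPS6KL1 and 0.68 in RPS6KA6, each with 35 of 42 rows above 0. In RPS6KA5 it was -0.92, with 4 rows above 0, in RPS6KB1 -0.67 and in RPS6KA2 -0.65. Some of these levels lay near those of wells with neighboring sample numbers. RPS6KL1 and RPS6KA6 share a block of 12 sample numbers, whose 9 other kinase wells had a median of 0.42. The blocks of RPS6KA2 and RPS6KA5 and of AKT1, PDPK1 and RPS6KB1 had -0.56 and -0.35. PDPK1, at 0.08, was above all 7 other kinase wells of its block, and RPS6KB2, at -0.44, was below its block's median of -0.12. The labels do not say what a block shared in the laboratory, and its part in these values was not tested for the lists.

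AKT restrains FOXO factors, so the FOXO motif GTAAACA was searched on both strands of the panel's promoter windows. It was present in those of PRAME, C10ORF82 (SPMIP5) and TSPYL6, 3 of the 48 panel genes with windows (83 windows), and in 2.98% of all RefSeq windows. PRAME, a cancer/testis antigen, had 2.76 normalized counts in AKT1, 7.92 in SGK and 7.56 in PDPK1. C10ORF82 had 9.19, 4.53 and 4.53, and TSPYL6 had 7.35, 9.05 and 6.80. Each of these values came from at most 10 raw counts and lay below the lane's negative-control level.

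By branch, AKT1, SGK and PDPK1 against the other kinase wells gave 0 of 58 rows (0% called, lowest adjusted p 0.969 in edgeR), with 1 row at an unadjusted p under 0.05. That row was PPM1D, at 0.39 ± 0.20 (SE) on the log2 scale, a mean of the unlike values 300.6, 190.1 and 102.01. Without AKT1 the difference turned to -0.05, and without PDPK1 it was 0.71 (adjusted p = 0.109 in edgeR). The RPS6KA wells gave 0 rows (0% called, lowest adjusted p 0.964), with UHRF1 alone at an unadjusted p under 0.05, at 0.31 ± 0.16 (SE). The RPS6KB wells gave 0 rows (0% called, lowest adjusted p 0.498 in edgeR). At an unadjusted p under 0.05 there were 5, namely SSX2, SPACA3, CTCFL, ADCY10 and XAGE1, with log2 fold changes from -1.05 to -0.72. These 5 rows lay below the negative-control level in both RPS6KB wells. DESeq2, limma and, for these 3 comparisons, the exact rank-sum test called 0 rows too.

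RPS6KA and RPS6KB kinases take different inputs, ERK or p38 against mTORC1, and were compared directly. Between the 3 RPS6KA and the 2 RPS6KB wells, edgeR called 0 of 58 rows (0% called, lowest adjusted p 0.997), with 1 at an unadjusted p under 0.05, and DESeq2 and limma called 0. An exact permutation of 3 against 2 wells cannot pass 0.05.

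The row named UHRF1, by name the hemimethylated DNA-binding partner of DNMT1, was at 1013 in RPS6KA2, 1059 in RPS6KA5 and 922.6 in RPS6KA6. It was at 756.3 in RPS6KB1 and 749.0 in RPS6KB2. The groups did not overlap, and the log2 difference was 0.41 ± 0.26 (SE). It was 0.10 with the block of sample numbers as a term and -0.013 with scaling by positive controls only. The other wells of the block of RPS6KA2 and RPS6KA5 had a UHRF1 median of 1003, those of the RPS6KB1 block 662 and those of the RPS6KB2 block 796. The controls spanned most of this range, at 683.7 and 997.1.

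The sperm adenylyl cyclase ADCY10 had 11.7, 14.3 and 15.1 normalized counts in the RPS6KA wells and 7.60 and 7.24 in the RPS6KB wells. Its log2 difference was 0.88 ± 0.43 (SE), and all 5 values came from 10 to 15 raw counts, below the negative-control levels. SSX2 (0.82), the CTCF paralog CTCFL (0.85) and the dipeptidase DPEP3 (0.97) followed, each at an adjusted p of 0.997 in edgeR. DPEP3 overlapped between the groups, with 3.81 to 13.1 against 2.77 to 5.07.

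In 12 of 58 rows the ranges of the RPS6KA and RPS6KB wells did not overlap, beside 0% of rows called by edgeR in this comparison. RPS6KA was above in 11 of these rows, with ATAD2 the exception (169.4 to 186.3 against 189.6 to 192.9). PPM1D was among the 12, at 170.3 to 200.9 against 123.8 to 161.8, and so was ALAS1, at 519.5 to 545.5 against 450.1 to 508.1. With so few wells on each side, ranges often fail to overlap by chance alone. The count of 12 was not tested against chance, so it does not show a difference between the branches. Of the lists, all 8 sperm structure and fertilization rows and all 6 enzyme rows had a log2 difference above 0, beside 40 of all 58 rows. In the other lists these were 2 of 5 MAGE rows, 4 of 6 other cancer/testis antigens and 3 of 7 germ cell RNA and piRNA genes. For germline chromatin and meiosis they were 4 of 7, and for DNA methylation and methyl-binding rows 5 of 8.

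The row named DNMT1, by name the maintenance DNA methyltransferase, had 9.41 to 18.4 normalized counts in the members. It was below the negative-control level in all but RPS6KL1. In its siRNA screen of IMR90 cells, the paper reports that DNMT1 mRNA fell with siRNA against it. Whether the row here reads DNMT1 was not checked. RPS6KB2 had the lowest value, with a Z-score of -2.01. The lane spelled RPSK6A3, whose letters resemble RPS6KA3, had 0 rows past a Z-score of 2.5 in either direction, with UHRF1 at 992.4 and PPM1D at 178.4. Counting it among the RPS6KA wells left 0 rows called in each comparison.

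The row named MyrFlag, which by its name reads the tag shared by the kinases, did not separate infected wells from controls. It had 534.2 to 731.0 normalized counts in the 9 wells and 665.3 and 714.2 in the controls. The row named ZBTB33 did: it was at 34745 in AKT1, 16278 in SGK, 7870 in PDPK1, 7846 in RPS6KA2, 6873 in RPS6KA5, 60596 in RPS6KA6, 29578 in RPS6KB1, 43911 in RPS6KB2 and 52848 in RPS6KL1. In the controls it was at 8.75 and 18.3, below the negative-control level.

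ZBTB33 (Kaiso, a methyl-CpG-binding factor by name) was the single row called between the 9 wells and the 2 controls (1.72% called), with a log2 fold change of 11.05 ± 1.96 (SE) and an adjusted p of 3.35e-06 in edgeR. Its levels correlated with the row named ZBTB38 at r = 0.99 over all kinase wells used, on the log2 scale. Its correlation with the MyrFlag row was 0.02, and with PPM1D -0.15. All these points share the lane's scaling. In the controls these rows parted: ZBTB38 was at 1591 and 7039, within its range in the kinase wells, where the members had 4287 to 32295. What sequence each probe reads was not checked here, and neither the match of probe names to probes nor the state of the controls was settled here: the labels give them as empty vector, while the study's text on the tag speaks of cells without infection. Of the tissue-restricted rows, 37 of 42 had a log2 fold change above 0 against the controls (median 0.45, beside 0.27 over all 58 rows), and 0 were called, with 1 (DAZL) at an unadjusted p under 0.05 in edgeR. Of these 42 rows, 3 were above the negative-control level in each control lane.

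RPS6KB1 departed from the common ratio of these rows. Its ZBTB33 level was 3.09 times its ZBTB38 level, the third highest ratio of all kinase wells, whereas the other 8 members lay between 1.53 and 2.13, around the other wells' median of 1.81. The members with the most ZBTB33 signal, RPS6KA6 and RPS6KL1, differed in PPM1D (199.7 and 121.8), and AKT1 had less ZBTB33 signal than RPS6KA6, RPS6KL1 and RPS6KB2.

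**Figure D4:**
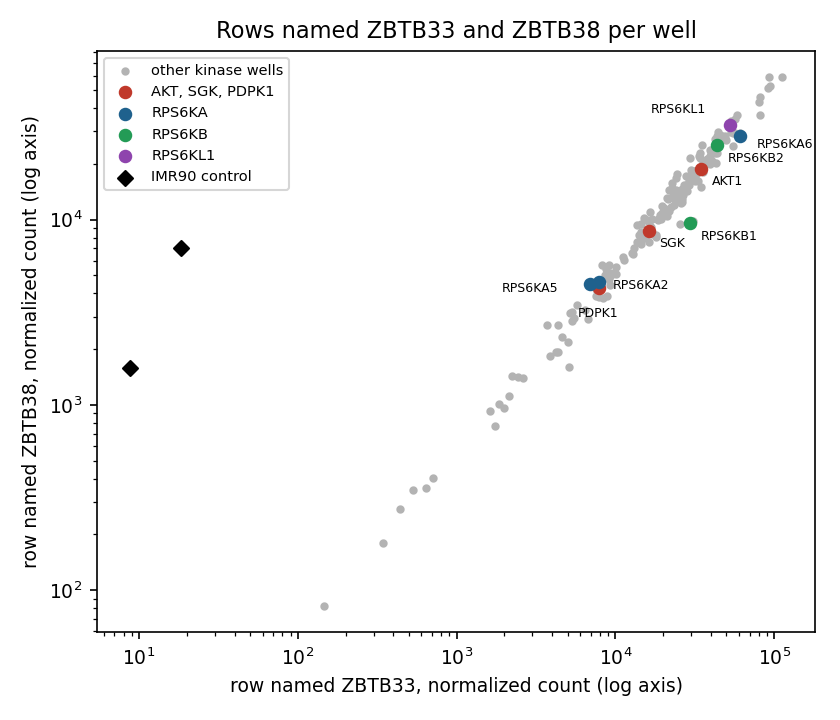
Normalized counts of the row named ZBTB38 against the row named ZBTB33 (both log axes) in the other kinase wells (grey), the 9 members (colored, named) and the 2 IMR90 controls (black diamonds). The members lie between 6873 and 60596 for ZBTB33, the controls at 8.75 and 18.3, and RPS6KB1 lies below the line of the other wells.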

How the data were processed

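Raw Nanostring counts per probe had been deposited for each lane, beside 1 table of signal values. In all lanes but 8, none of them among the 9 members, the authors had made this signal by multiplying the count by 1 factor per lane (relative spread at most 8.79e-15). The 9 members were compared with 174 other kinase lanes, out of 183 kinase lanes used and 197 lanes of the series.

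Counts were scaled with Python 3.11.15 and numpy 2.4.6 by the geometric mean of the 6 positive controls and then of PGK1, TBP and TUBB2A. Raw counts were tested with edgeR 4.0.16 in R 4.3.3, with these factors as offsets, in a 2-group fit, a 5-group fit for the branches and a 3-group fit with the controls. DESeq2 1.42.0 and limma 3.58.1 were alternatives, with other normalizations, floors, pseudocounts, blocks of 12 sample numbers and wells left out in turn. A pseudocount of 1 was added before log2 for Z-scores. The fits were tested on simulated data.

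Lanes were grouped by their titles. The members, lists and named genes were chosen with earlier results of these data known. Named were rows past the threshold, the 8 and 5 rows with the smallest p in the family and RPS6KA/RPS6KB tests, pairs past a Z-score of 2.5 and 12 rows named in every case, and other rows were chosen after their values were seen. Of 61 probe rows, 55 matched RefSeq by accession. Total counts of 148027 to 298024 set the precision, which is low for rows with few counts.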

Additional observations from a re-analysis of the deposited data

Results flagged for a closer look

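In 3 of 58 rows, the highest or lowest of the 9 wells stood apart from the other 8 by more than Dixon's 95% limit of 0.493 of the range on the log2 scale, and chance alone flags about 1 in 20 rows. MAGEA3, a cancer/testis antigen, was at 15.1 normalized counts in RPS6KA6, against 4.76 to 8.65 in the other members (gap of 0.499 of the range), and at 4.86 and 5.09 in the controls. It had 15 raw counts there, below the negative-control level of that lane.

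SPATA22, a meiotic recombination protein, was at 24.2 in PDPK1, against 12.4 to 17.1 in the others (0.523). It had 32 raw counts, above the lane's level of 25.4. ITPR2, an inositol trisphosphate receptor of the endoplasmic reticulum, was at 507.0 in PDPK1, against 639.0 to 799.0 in the others (0.509), and at 646.8 and 712.2 in the controls. In the 7 other kinase wells of the same block of sample numbers, ITPR2 ranged from 381.7 to 685.6, with a median of 527.1.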

How the results depend on the processing

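The comparisons of the 9 wells and of their branches with the other kinase wells, and of RPS6KA with RPS6KB, called 0 rows under each of the 17 to 24 alternatives run per comparison, with lowest adjusted p of 0.328 for the 9 wells, 0.109 for AKT1, SGK and PDPK1, 0.362 for RPS6KA, 0.223 for RPS6KB and 0.407 between the last 2. Between the 9 wells and the controls, 1 row was called in 24 alternatives and 2 (ADCY10 and ZBTB33) with the second lane of IMR90#2 added. Pairs past a Z-score of 2.5 numbered 0 with all 4 housekeeping genes (PPM1D in AKT1 at 2.38), 2 with positive controls only (PIWIL1 in RPS6KL1 added), 2 with a pseudocount of 10 (TKTL2 in RPS6KA6 added), 4 with median and median absolute deviation (all below -2.5, with PPM1D in AKT1 at 2.45) and 6 with each block of sample numbers centred, 3 in each direction. Tet3 in the 9 wells turned to 0.026 with DESeq2's own size factors, UHRF1 between RPS6KA and RPS6KB to -0.013 with positive controls only, and PPM1D in AKT1, SGK and PDPK1 to -0.051 without AKT1, against 0.71 without PDPK1, the ends of its range with each well of that branch left out. The cause was not tested. The family difference of PPM1D was between 0.08 and 0.33 over its 24 alternatives, lowest without AKT1. An exact rank-sum test was not run between RPS6KA and RPS6KB, where it could not pass the threshold, nor against the controls. No paired analysis was possible because each kinase has 1 lane and the control numbers name no kinase lane. Low counts limit the tissue-restricted rows, most of which were below the negative-control level.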
